A study of Mus musculus with 6 samples.

Results

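The genes described here are 9 genes of superoxide production and removal in mouse myeloid cells: 2 membrane subunits of the phagocyte NADPH oxidase (Cybb and Cyba), 3 cytosolic subunits (Ncf1, Ncf4 and Rac2), the proton channel Hvcn1, and 3 scavengers of reactive oxygen species (Sod2, Cat and Gpx1). They were picked by name from a table of 25751 gene IDs, and all 9 passed the filter on low counts that left 14626 genes for testing. The samples were primary wild-type myeloid cells, 3 libraries after treatment with TMAO (trimethylamine N-oxide, an oxide of a gut bacterial product of choline and carnitine) and 3 control libraries, all labelled 24 h. The deposited column names call the treated samples T-BMDM and the others Control, and the labels give no dose. Nothing states that replicate libraries are separate cultures or animals, so the spread behind the p-values is that of these libraries alone and may be technical. If the T-BMDM and Control cells were also prepared in different ways, that and the treatment cannot be told apart.

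The oxidase made by these genes, NOX2, moves electrons from NADPH in the cytosol across the phagosome or plasma membrane to oxygen, which gives superoxide. Cybb encodes the catalytic chain that carries the flavin and haem groups, and Cyba its membrane partner; in resting cells the organizer Ncf1 and its partner Ncf4 stay in the cytosol and join them on stimulation, together with a Rac GTPase. Superoxide dismutases turn superoxide into hydrogen peroxide, which catalase and glutathione peroxidases break down.

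RefSeq promoters (build GRCm38.p6) were held for 6 of the 9 genes, and 4 are shown to compare the promoter of the subunit that changed most (Cybb) with those of subunits that did not pass the test (Cyba and Ncf1) and of a scavenger that rose (Sod2). The windows of Cat and Gpx1, which fell, were also searched and are not shown. Each is the 250 bases before the start site, written 5′ to 3′ on the gene's strand, at chrX:9469325-9469574 on the minus strand for Cybb, chr8:122432941-122433190 on the minus strand for Cyba, chr5:134229626-134229875 on the minus strand for Ncf1 and chr17:13007589-13007838 on the plus strand for Sod2. Capitals mark matches, on either strand, to the letters of an interferon regulatory factor site (GAAA repeated after a gap of any 2 bases), a CCAAT box (CCAAT), a GC box (GGGCGG) or a PU.1 core (GAGGAA).
Cybb: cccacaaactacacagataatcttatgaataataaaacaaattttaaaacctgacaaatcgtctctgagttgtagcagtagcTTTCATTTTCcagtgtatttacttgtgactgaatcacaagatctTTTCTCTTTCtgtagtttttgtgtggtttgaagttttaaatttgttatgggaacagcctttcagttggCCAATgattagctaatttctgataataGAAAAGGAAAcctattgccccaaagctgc
Cyba: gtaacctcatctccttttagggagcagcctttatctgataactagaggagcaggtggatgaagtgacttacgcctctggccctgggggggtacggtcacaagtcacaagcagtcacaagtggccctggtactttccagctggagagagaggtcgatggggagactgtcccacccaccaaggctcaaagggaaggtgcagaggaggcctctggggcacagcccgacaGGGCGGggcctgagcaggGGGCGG
Ncf1: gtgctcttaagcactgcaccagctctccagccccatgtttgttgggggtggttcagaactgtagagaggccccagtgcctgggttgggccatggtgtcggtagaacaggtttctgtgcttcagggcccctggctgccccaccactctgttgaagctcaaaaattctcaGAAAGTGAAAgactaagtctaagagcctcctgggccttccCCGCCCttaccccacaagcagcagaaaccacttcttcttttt
Sod2: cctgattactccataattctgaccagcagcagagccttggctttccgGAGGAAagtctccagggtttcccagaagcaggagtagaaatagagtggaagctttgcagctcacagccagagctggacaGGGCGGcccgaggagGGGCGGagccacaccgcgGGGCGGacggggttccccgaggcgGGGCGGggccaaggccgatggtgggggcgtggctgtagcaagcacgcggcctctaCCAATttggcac
The Cybb window held 3 matches to the interferon regulatory factor letters, which ended 159, 115 and 20 bases before the start site, and 1 CCAAT box. Of 32851 promoter windows of the same length, 2.98% held at least 1 match to them and 4 windows (0.0122%) held at least 3. The Ncf1 window held 1 such match and 1 GC box. The windows of Cyba, Sod2, Cat and Gpx1 held none. Cyba had 2 GC boxes, and Sod2 had 4 GC boxes, a CCAAT box and a PU.1 core. Cat had 4 CCAAT boxes, a GC box and a PU.1 core, and Gpx1 had no match to any of the letters. A GC box was present in 32.7% of all windows, a CCAAT box in 33.8% and a PU.1 core in 23.3%. At least 3 GC boxes were held by 8.47% of windows and at least 3 CCAAT boxes by 2.79%. G and C made up 34% of the Cybb window, 42% of that of Gpx1 and 54.4% to 63.6% of those of Ncf1, Cyba, Cat and Sod2. The shares of windows with a match are over windows of any GC content. No match to TATAAA (12.4% of windows) or to an NF-kB site (GGG followed, after a gap of any 2 bases, by TTTCC; 1.41%) was found in the 6 members' windows. Matches overlapped each other only in Cat, which is not shown, where a PU.1 core and a CCAAT box shared a base. These are matches of letters in the reference, and binding was not measured.

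Across the 6 libraries, total counts ran from 37759007 to 41735109, and libraries correlated across genes at r = 0.989 to 0.996 within a group and 0.917 to 0.947 between groups (log2 CPM). Levels are given as CPM, each library's counts scaled to a common total with TMM factors. The groups differed in markers of cell types that also carry this oxidase. Of 14 neutrophil markers, 12 rose, 1 fell and 1 did not pass the test, and their summed level was 4097 to 5284 CPM with TMAO, against 432 to 462 CPM in controls; S100a9, a calcium-binding protein of neutrophils, was at 1851 ± 304 CPM with TMAO and 17.4 ± 4.05 CPM in controls, and the granule gene Ngp at 1164 ± 80.1 and 7.50 ± 1.73 CPM (SD, n = 3 each). Of 6 monocyte markers, 5 rose and 1 fell (sums of 995 to 1043 CPM with TMAO and 182 to 236 CPM in controls), with Ly6c2 at 351 ± 18.6 CPM with TMAO and 159 ± 23.8 CPM in controls and Chil3 at 321 ± 10.2 and 8.82 ± 0.602 CPM (SD, n = 3 each). Of 9 macrophage markers, 4 rose and 5 fell (6245 to 6540.0 CPM with TMAO and 8360 to 8930 CPM in controls), with Csf1r, the receptor for the macrophage growth factor, at 2108 ± 244 CPM with TMAO and 2560 ± 85.4 CPM in controls and the lysosomal marker Cd68 at 1324 ± 61.2 and 2324 ± 168 CPM (SD, n = 3 each). Csf1r and Cd68 were thus present in both groups. The remaining marker sums were low: 27.4 to 28.5 CPM with TMAO and 9.06 to 11.4 CPM in controls for 6 B cell markers (5 rose), 9.03 to 10.3 and 3.24 to 3.66 CPM for 4 eosinophil markers (2 rose and 1 fell of 3 tested), and 1.07 to 1.49 and 0.677 to 1.45 CPM for 4 erythroid markers (1 rose and 1 fell of 2 tested). Pax5 had no count in any control library. The part of these marker differences in the results below was not tested, and in such bulk samples fewer cells of a type and less RNA per cell cannot be told apart.

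Neither the oxidase genes nor the scavengers moved as a block. Of the 6 oxidase and proton channel genes, Ncf4 rose, Cybb, Rac2 and Hvcn1 fell, and Cyba and Ncf1 did not pass the test (quasi-likelihood test of edgeR, Benjamini-Hochberg adjusted over all genes, threshold 0.05). Of the 3 scavengers, Sod2 rose and Cat and Gpx1 fell. In all, 7 of the 9 genes were called, where 65.7% of all genes tested were called, so the number called is close to that of genes at large; 33% of genes were called higher and 32.7% lower. TMAO and control CPM did not overlap for 7 of the 9, beside 71% of all genes tested. In a test against a fold of 1.5, which 35.4% of genes passed (18% higher, 17.5% lower), Cybb, Ncf4 and Sod2 were called. With the trend of fold change on transcript length removed, 8 of the 9 were called, beside 65.8% of genes (34.4% higher, 31.4% lower). The median log2 fold change (TMAO over control) was -0.15 over the 6 oxidase and channel genes, -0.50 over the 3 scavengers and 0.01 over all genes tested.

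**Figure D1:**
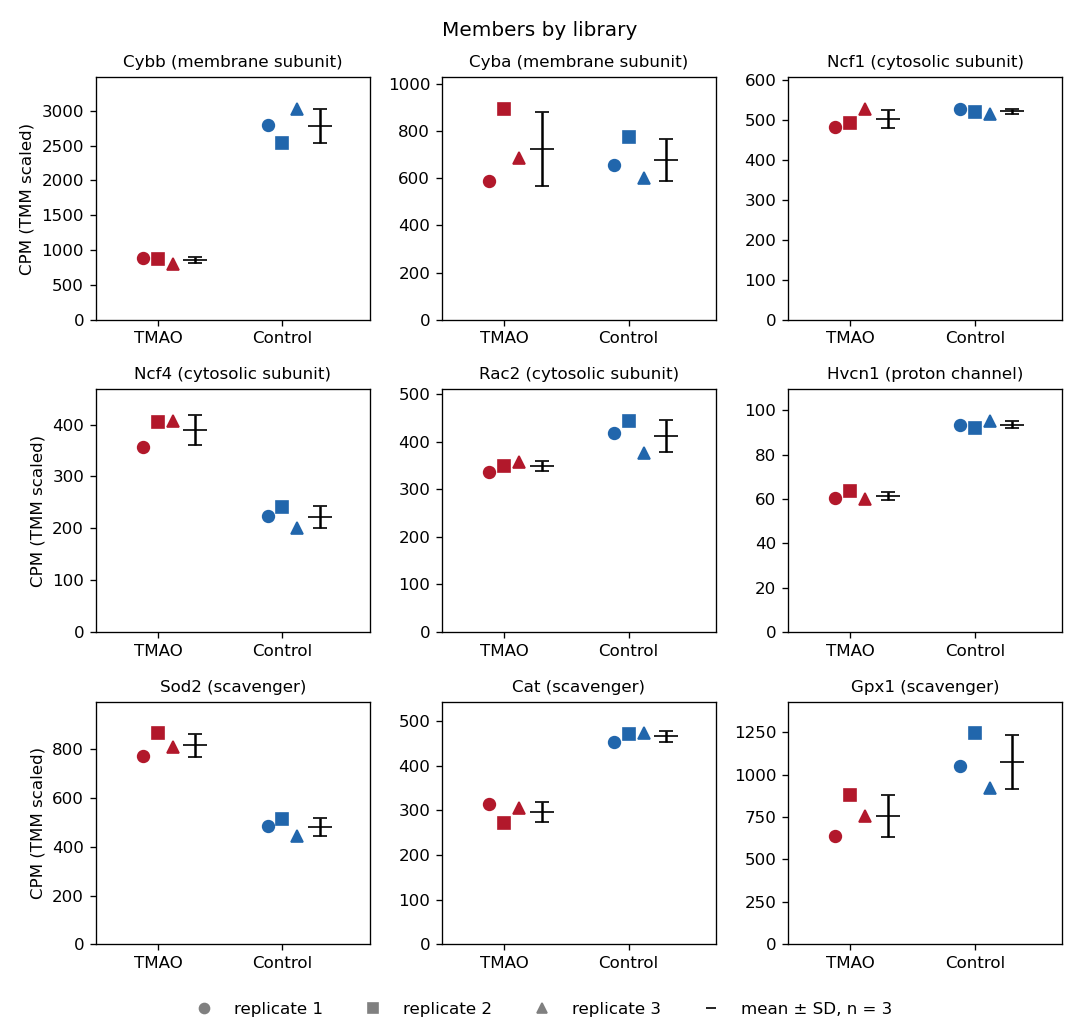
CPM (TMM scaled, axis from 0) of the 9 genes in each library, with TMAO in red on the left and Control in blue on the right of each panel; symbols mark the replicate and black bars the mean ± SD (n = 3). Cybb lies at 806 to 893 CPM with TMAO and 2540 to 3027 CPM in controls, whereas the groups overlap for Cyba and Ncf1.

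Among the membrane subunits, the catalytic chain fell and its partner did not change by the test. Cybb (ENSMUSG00000015340, chromosome X) had 893, 877 and 806 CPM in TMAO libraries 1 to 3, against 2789, 2540 and 3027 CPM in control libraries 1 to 3. Every TMAO library was below every control library by a wide gap, and Cybb alone took 0.0794% to 0.091% of all counts with TMAO and 0.252% to 0.309% in controls. Its log2 fold change was -1.70 (SE 0.10, edgeR adjusted p = 2.66e-07), which put the TMAO level at 0.308 times the control level. It was the only one of the 9 called and changed by at least 2-fold, which 15.7% of all genes tested did in the higher and 14.7% in the lower direction, and 5.29% of genes tested had a log2 fold change as low or lower. Leaving out any 1 library kept the log2 fold change between -1.76 and -1.64. The fall was smaller, at -1.40, with the length trend removed and at -1.46 with the trend on GC content removed. Of the 9 macrophage markers, Mertk (log2 fold change -3.31), Fcgr1 (-2.07), Adgre1 (-1.70), Cd68 (-0.81) and Csf1r (-0.28) fell, and C1qa (0.75), C1qb (0.67), Mrc1 (0.34) and C1qc (0.22) rose. The part of these markers in the Cybb result was not tested.

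Cyba (ENSMUSG00000006519, chromosome 8) had 589, 894 and 685 CPM in the TMAO libraries, against 656, 775 and 601 CPM in the controls. The groups overlapped, and the second library of each group was its highest. The log2 fold change was 0.09 (SE 0.15, 95% interval -0.24 to 0.43, edgeR adjusted p = 0.601). Cyba is also where the length trend of the data bears on the call: over the shortest 20% of genes tested, where Cyba lies with a transcript of 744 bases, the median log2 fold change was 0.49, and over the longest 20% it was -0.53. With that trend removed Cyba was called lower (log2 fold change -0.38, edgeR adjusted p = 0.00244). Over the fits that tested against no change, its adjusted p ran from 4.08e-04 to 0.98 (edgeR, except for DESeq2 and limma-voom).

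The cytosolic subunits went 3 ways. Ncf1 (ENSMUSG00000015950), the organizer that is phosphorylated on activation, had 484, 494 and 527 CPM with TMAO, against 528, 520 and 516 CPM in controls. These values overlapped within a narrow range, and the log2 fold change was -0.06 (SE 0.08, 95% interval -0.23 to 0.12, edgeR adjusted p = 0.546). Ncf4 (ENSMUSG00000071715), which binds phosphoinositides of the phagosome membrane, had 357, 406 and 407 CPM with TMAO, against 225, 242 and 200 CPM in controls. All TMAO libraries were above all controls, and Ncf4 rose 1.75-fold (log2 fold change 0.81, SE 0.10, edgeR adjusted p = 4.25e-05). Ncf4, another short transcript, stayed called at 0.45 once length was accounted for.

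Rac2 (ENSMUSG00000033220), the Rac GTPase of blood cells, had 337, 350 and 358 CPM with TMAO, against 418, 444 and 376 CPM in controls. The groups did not overlap, although the highest TMAO library was close to the lowest control library. Rac2 fell, by a log2 fold change of -0.24 (SE 0.09, edgeR adjusted p = 0.0309). The call was lost without TMAO replicate 1 (adjusted p = 0.0625), TMAO replicate 3 (0.0698), control replicate 1 (0.0943) or control replicate 2 (0.126). It was also lost in the test against a fold of 1.5. Over the fits that tested against no change, the adjusted p ran from 0.00335 to 0.126 (edgeR, except for DESeq2 and limma-voom).

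Hvcn1 (ENSMUSG00000064267), the voltage-gated channel that lets protons follow the electrons and so keeps the oxidase running, had 60.2, 63.6 and 60.0 CPM with TMAO, against 93.4, 92.1 and 95.1 CPM in controls. Libraries of a group were close to each other and the groups did not overlap. Hvcn1 fell (log2 fold change -0.61, SE 0.08, edgeR adjusted p = 7.66e-05). Its exons share 1574 bases, 44.2% of their total, with Tctn1 on the opposite strand, and the strand setting of the counting is not given; Tctn1 itself had 1608 counts over all libraries, against 7002 for Hvcn1 in the TMAO libraries and 11364 in the controls. Ncf1 shares 11.1% of its exon bases with Gtf2ird2 in the same way, and no other gene of the annotation shared exon bases with the remaining members.

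Among the scavengers, the mitochondrial enzyme rose and the 2 peroxide-removing enzymes fell. Sod2 (ENSMUSG00000006818), the manganese superoxide dismutase of mitochondria and a known target of inflammatory signalling, had 774, 866 and 808 CPM with TMAO, against 484, 514 and 443 CPM in controls. The groups lay far apart, and Sod2 rose 1.699-fold (log2 fold change 0.76, SE 0.09, edgeR adjusted p = 3.71e-05; 1.21 with the length trend removed). Cat (ENSMUSG00000027187), the catalase of peroxisomes, had 314, 271 and 304 CPM with TMAO, against 452, 472 and 472 CPM in controls. It fell, with no overlap, by a log2 fold change of -0.65 (SE 0.09, edgeR adjusted p = 8.10e-05).

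Gpx1 (ENSMUSG00000063856), the main glutathione peroxidase of the cytosol, had 636, 880 and 754 CPM with TMAO, against 1053, 1243 and 923 CPM in controls. The highest TMAO library came near the lowest control library without reaching it. Gpx1 fell (log2 fold change -0.50, SE 0.14, edgeR adjusted p = 0.00823), and by -0.93 once length was accounted for. The spread of Gpx1 and Cyba between libraries was larger than that of the other 7 members in both groups: the coefficient of variation was 16.1% with TMAO and 15% in controls for Gpx1, 21.6% and 13.2% for Cyba, and at most 7.57% and 9.34% for the others. Both have short transcripts, and for both the second library was the highest of its group and, with TMAO, the first the lowest. Sod2, the longest member transcript, had the same highest and lowest libraries, and Ncf4, also in the shortest 20%, was highest in TMAO library 3. The shortest 20% of genes as a class were also highest in these libraries, with a median deviation from the group mean of 0.13 in TMAO library 2 and 0.10 in control library 2 on the log2 scale, and of -0.14 in TMAO library 1.

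The members' order by level per transcript length differed between the groups for most members. In CPM per kilobase of the longest transcript, the TMAO order was Cyba (972 ± 210), Gpx1 (706 ± 114), Ncf4 (266 ± 19.5), Cybb (181 ± 9.78), Ncf1 (174 ± 7.81), Sod2 (139 ± 7.89), Rac2 (115 ± 3.51), Cat (114 ± 8.59) and Hvcn1 (21.9 ± 0.707) (SD, n = 3 each). In controls it was Gpx1 (1001 ± 150.0), Cyba (911 ± 120), Cybb (586 ± 51.2), Ncf1 (181 ± 2.09), Cat (178 ± 4.40), Ncf4 (152 ± 14.2), Rac2 (136 ± 11.2), Sod2 (81.9 ± 6.13) and Hvcn1 (33.3 ± 0.547). Neighbours whose libraries overlapped were Cyba and Gpx1, Cybb and Ncf1, and Rac2 and Cat with TMAO, and Gpx1 and Cyba, Ncf1 and Cat, and Ncf4 and Rac2 in controls. The order depends on the length used: with the length of all exons, Sod2 came after Cat and Rac2 with TMAO (81.5, against 113.5 and 112), and in controls Cat came before Ncf1 (178 and 142) and Rac2 before Ncf4 (133 and 110.0). Among 14598 tested genes with a length, Cybb ranked 383 with TMAO and 68 in controls, whereas Cyba ranked 56 with TMAO and 48 in controls.

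**Figure D2:**
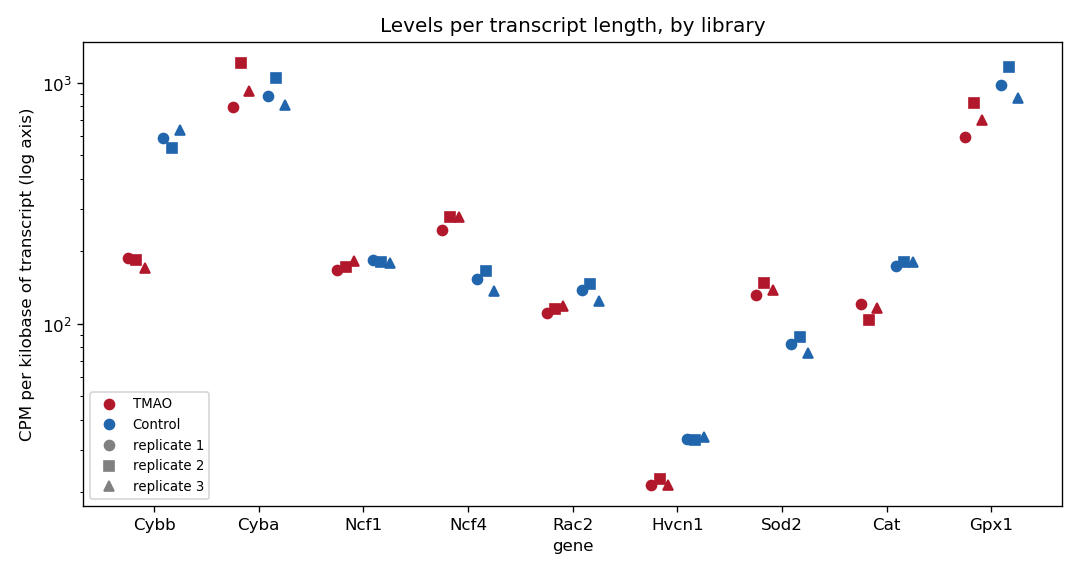
CPM per kilobase of the longest annotated transcript, on a log axis, for the 9 genes in each library, with TMAO in red left of Control in blue and symbols for the replicate. Cybb stands between Cyba and Ncf1 in controls, at 586 on average, and beside Ncf1 with TMAO, at 181.

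The membrane pair shows the change in balance within each library. The ratio of Cybb to Cyba per length was 0.237, 0.154 and 0.184 in TMAO libraries 1 to 3, against 0.665, 0.513 and 0.789 in control libraries 1 to 3, so that the mean ratio was 0.292 times that of controls. The ratio of Ncf4 to Cybb was 1.297, 1.502 and 1.639 with TMAO, against 0.261, 0.309 and 0.215 in controls. Ncf4 transcripts were thus more abundant per length than those of Cybb in every TMAO library and less abundant in every control library. These ratios keep the trend of fold change on transcript length. With that trend removed, the log2 fold changes were -1.40 for Cybb, -0.38 for Cyba and 0.45 for Ncf4. The gaps of Cyba and Ncf4 to Cybb were thus smaller than with the trend kept (-1.70, 0.09 and 0.81). The ratio of Ncf4 to Ncf1, a pair of the cytosolic complex, was 1.53 ± 0.083 with TMAO and 0.839 ± 0.0753 in controls, and that of Sod2 to Cat was 1.24 ± 0.168 with TMAO and 0.461 ± 0.037 in controls (SD, n = 3 each). With the length of all exons the Sod2 to Cat ratio was 0.723 with TMAO and 0.27 in controls, so whether Sod2 or Cat was the more abundant with TMAO depends on the length used. The ratio of Gpx1 to Cat, the 2 scavengers that fell, overlapped between the groups (6.29 ± 1.502 with TMAO and 5.62 ± 0.83 in controls, SD, n = 3 each).

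Of 5 further NOX2 complex and assembly genes, Cybc1 fell and 4 did not pass the test, with a median log2 fold change of 0.01; 65.7% of all genes tested were called. Cybc1, a chaperone needed for the Cybb and Cyba pair to mature, was at 81.5 ± 7.22 CPM with TMAO and 96.0 ± 6.28 CPM in controls (SD, n = 3 each), with an edgeR adjusted p of 0.0492 (log2 fold change -0.24). Over the fits that tested against no change, its adjusted p ran from 0.0011 to 0.152 (edgeR, except for DESeq2 and limma-voom). Its call was lost without TMAO replicate 1 (adjusted p = 0.0724), TMAO replicate 2 (0.138), control replicate 1 (0.112) or control replicate 2 (0.152). Rac1, the widely expressed Rac, Nrros, which lowers NOX2 abundance, the GTPase Rap1a and Arhgdib, which holds Rac in the cytosol, had log2 fold changes of 0.03, 0.01, 0.09 and -0.18 without a call. Arhgdib was called lower (-0.59) and Rac1 higher (0.22) with the length trend removed, and Rap1a higher (0.48) once the trend on GC content was removed.

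Among genes that signal to the oxidase, more fell than rose. Of 12 such genes, 8 fell, 1 rose and 3 did not pass the test, and the median log2 fold change was -0.77, beside 32.7% of all genes called lower and a median of 0.01. Dock2, an exchange factor for Rac, was at 130 ± 18.0 CPM with TMAO and 277 ± 15.4 CPM in controls (log2 fold change -1.09, SE 0.11, edgeR adjusted p = 1.11e-05). Pak1, a kinase that Rac activates, was at 29.6 ± 2.14 CPM with TMAO and 59.3 ± 3.28 CPM in controls (log2 fold change -1.001). Arhgap25, which switches Rac off, was at 60.8 ± 3.63 and 101 ± 2.95 CPM (log2 fold change -0.73, SD and n = 3 for each mean). The member that rose was Pla2g4a, the phospholipase that frees arachidonic acid, named after its value was seen (log2 fold change 0.82). With the length trend removed the list again had 8 lower and 1 higher. The size of the Dock2 fall depended on that trend: it was -0.60 then, with Pak1 at -1.02 and Arhgap25 at -0.60.

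Oxidase catalytic chains and partners outside NOX2 were close to absent. Of 9 such genes, 8 were in the table and 1 passed the filter. That gene, Noxo1, the organizer of NOX1, fell to 0.505, 0.275 and 0.365 CPM in the TMAO libraries, against 1.57, 1.69 and 1.02 CPM in controls (log2 fold change -1.89, SE 0.36, edgeR adjusted p = 0.00103). The others in the table were at 0.328 CPM or less in every library, and Nox4 was not analysed here.

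Scavengers beyond the 3 members were called about as often as genes at large (65.7%), with more higher than lower. Of 19 listed, 17 were tested: 10 rose, 1 fell and 6 did not pass the test, with a median log2 fold change of 0.49, beside 33% of all genes called higher and 32.7% lower. Gpx3, the secreted glutathione peroxidase, was at 66.1 ± 6.49 CPM with TMAO and 17.3 ± 0.106 CPM in controls (log2 fold change 1.93, SE 0.10, edgeR adjusted p = 1.53e-07). Srxn1, which repairs overoxidized peroxiredoxins, was at 616 ± 30.6 and 189 ± 5.13 CPM (log2 fold change 1.703), and Txnrd1, the cytosolic thioredoxin reductase, at 577 ± 53.8 and 280 ± 4.97 CPM (log2 fold change 1.04; SD, n = 3 for each mean). The one that fell was Prdx3, the mitochondrial peroxiredoxin, named after its value was seen (log2 fold change -0.23, edgeR adjusted p = 0.0358). That call was lost with the GC trend removed, with every gene of at least 1 count tested, and without TMAO replicate 1, TMAO replicate 3, control replicate 2 or control replicate 3. Gpx3 and Gpx1, of the same enzyme family, thus moved in opposite directions. With the length trend removed 9 rose and 4 fell, beside 34.4% and 31.4% of all genes. Of 5 enzymes that supply NADPH, the substrate of the oxidase and of glutathione reduction, 2 rose and 2 fell, beside 33% and 32.7% of all genes: Pgd of the pentose phosphate pathway and malic enzyme Me1 had log2 fold changes of 0.98 and 1.05, and isocitrate dehydrogenase Idh1 and NAD kinase Nadk of -1.22 and -0.52, Nadk being named after its value was seen.

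**Figure D3:**
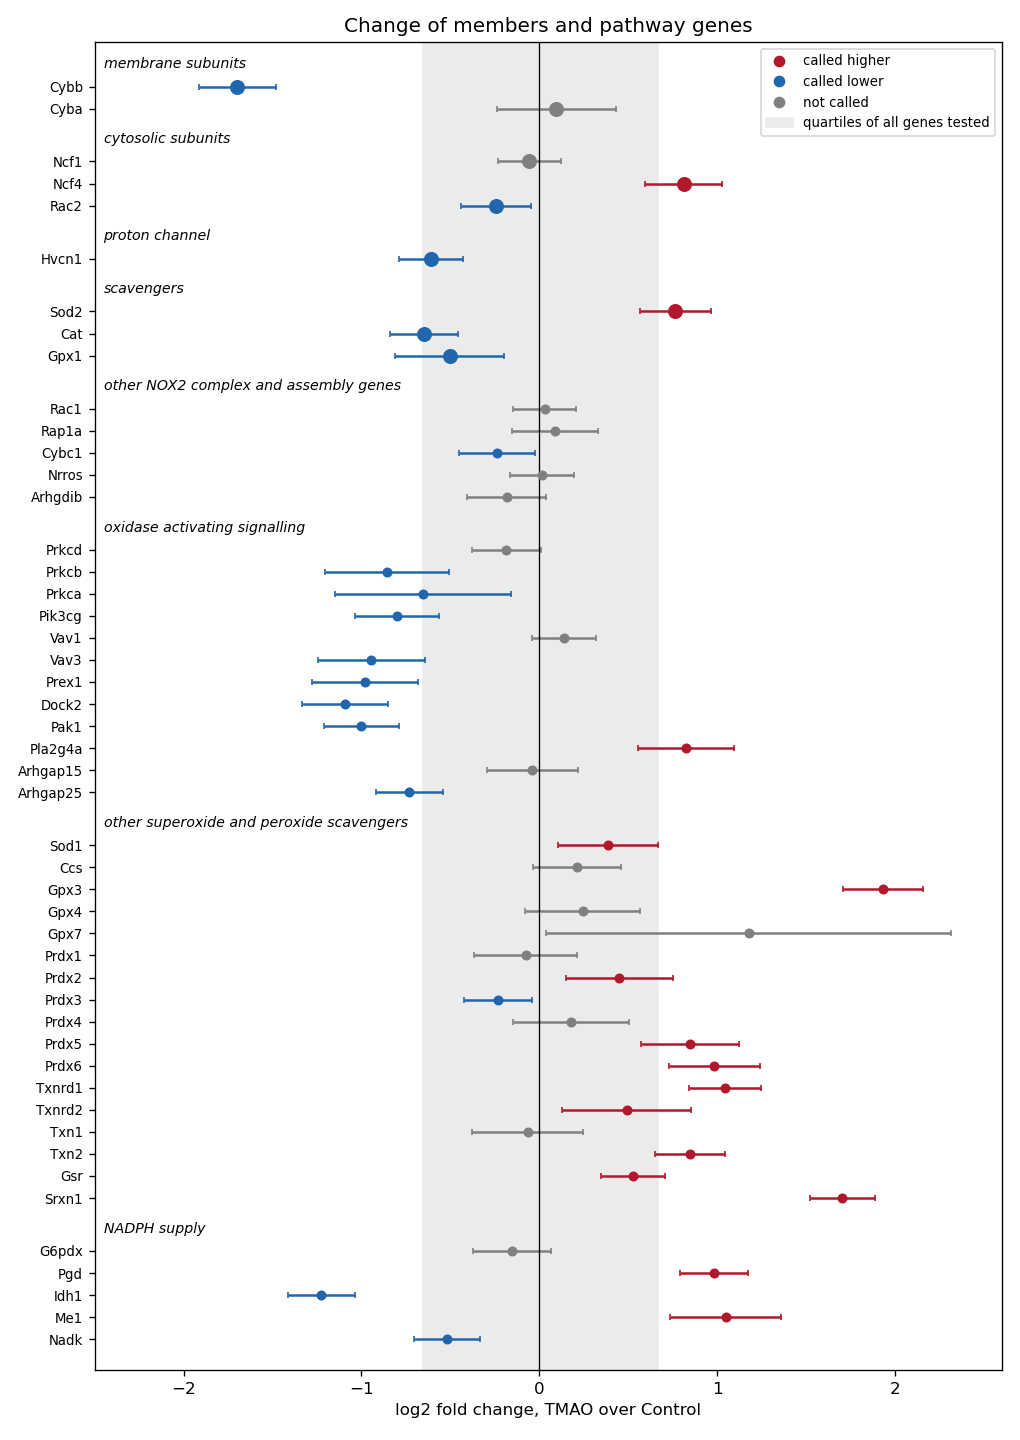
Log2 fold change (TMAO over Control) of the 9 members (large points) and of the listed pathway genes that were tested, with 95% intervals from the fit; red is called higher, blue called lower, grey not called, and the grey band spans the quartiles of all genes tested. Noxo1 is not drawn. Cybb at -1.70 is the lowest point shown, and Gpx3 at 1.93 the highest.

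The genes whose levels followed Cybb most closely over the 6 libraries were Slc8a1, a sodium-calcium exchanger, Wwp1, a ubiquitin ligase, and Nek7, a kinase that binds NLRP3 (Pearson r of log2 CPM of 0.9998, 0.9996 and 0.9995). Slc8a1 averaged 11.4 CPM with TMAO and 83.8 CPM in controls, Wwp1 23.4 and 170.0 CPM, and Nek7 50.8 and 141 CPM. The 6 points fall into the 2 groups, and 489 of 9195 genes considered reached an r of 0.99, so this is a description of the same step between groups.

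**Figure D4:**
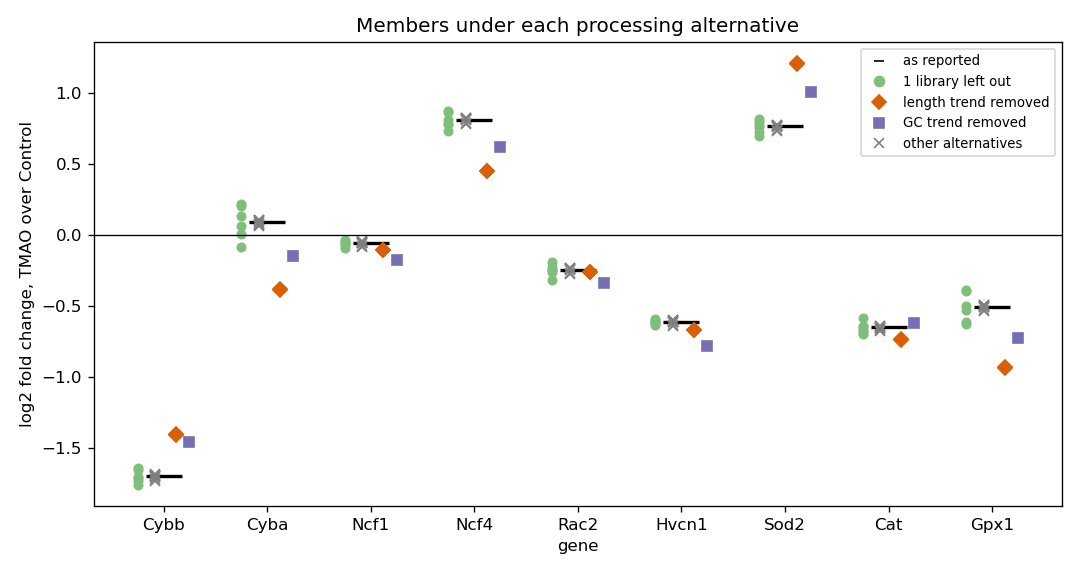
Log2 fold change (TMAO over Control) of each member as reported (black bar) and under the processing alternatives: green circles leave out 1 library, orange diamonds remove the length trend, purple squares remove the GC trend and grey crosses are the other fits. Cyba is the member whose direction turns, at -0.38 with the length trend removed, -0.15 with the GC trend removed and -0.085 without TMAO replicate 2.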

How the data were processed

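Counts per Ensembl gene were used as the authors deposited them: 1 table of raw counts, whole numbers without normalization, for 25751 gene IDs and 6 libraries. Per the labels' protocols, poly(A) RNA was fragmented, primed with random hexamers and sequenced as paired ends on instruments of 2 makers, with no record of which library ran on which, so a platform difference cannot be told apart from the treatment. The submitters' processing notes name the build GRCm39. Aligner, counter, annotation release and strand setting: not given in the sources used here. Groups came from the sample titles and columns from the sample descriptions.

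Symbols (25386 IDs), lengths and GC content came from GENCODE M21 (GRCm38) and promoters from RefSeq (GRCm38.p6). In edgeR 4.0.16 (limma 3.58.1, R 4.3.3), filterByExpr with a minimum count of 10 kept 14626 genes, libraries were TMM scaled, and a quasi-likelihood F test without covariates compared TMAO with control, with Benjamini-Hochberg adjustment over all genes and a threshold of 0.05. CPM errors are SD; the SE is the log2 fold change over the square root of F. Some of the fits were also run on simulated counts without a length or GC trend, which cannot show how these trends bear on the calls. Replicates were compared by chi-square over genes (from 13 to 65.6 per degree of freedom), so none agreed within sampling noise. Same-numbered libraries deviated together at r = 0.105, 0.314 and -0.194, so numbers were not taken as pairs.

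The members and lists were chosen with earlier results of these data known. Named are all 9 members, the 5 further NOX2 complex genes, the 3 genes with the smallest p of each other pathway list, the 2 most abundant markers of each of the 3 myeloid lists (those of the other lists, also in the rule, are given as sums), and the 3 genes most like Cybb. Members of the lists that are withheld are not reported here. Marker lists are neutrophil, monocyte, macrophage, B cell, eosinophil and erythroid. No other gene carried at least 95% identity to a member over more than 193 bases except the overlapping Tctn1. Alternatives were DESeq2 1.42.0, limma-voom, other scalings and filters, the replicate number as a block, a threshold fold of 1.5, removal of length and GC trends, removal of the 20 genes with most counts, and each library left out.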

Additional observations from a re-analysis of the deposited data

How the results depend on the processing

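Results were refitted under the processing alternatives and with each of the 6 libraries left out. Cybb, Ncf4, Hvcn1, Sod2, Cat and Gpx1 kept their direction and call in each of 17 refits that tested against no change, and Ncf1 stayed without a call in all 17. Tested against a fold of 1.5, which 35.4% of all genes passed, Cybb, Ncf4 and Sod2 remained called. Thus 1 oxidase or channel gene and 0 scavengers were lower. Rac2 (log2 fold change -0.24), Hvcn1 (-0.61), Cat (-0.65) and Gpx1 (-0.50) were not called (glmTreat of edgeR). The length trend was kept in that test. With it removed, and without a fold test, Cybb was at -1.40, Ncf4 at 0.45, Rac2 at -0.264, Hvcn1 at -0.668, Sod2 at 1.21, Cat at -0.735 and Gpx1 at -0.93. Cyba turned to -0.38 with the length trend removed, -0.39 with the replicate block and the length trend removed together and -0.15 with the GC trend removed, and with single libraries left out ran from -0.085 to 0.219. Rac2 ran from -0.315 to -0.19 with single libraries left out. The replicate block alone changed no call of a member and gave 4887 genes higher and 4836 lower over all genes, against 4830 and 4778 without it; single libraries left out gave 4392 to 4955 higher and 4225 to 4976 lower.

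Among the 5 further complex genes, 1 was higher with the length trend removed, with or without the block (Rac1), and 1 with the GC trend removed (Rap1a, 0.481, edgeR adjusted p = 0.00243). Over the refits that tested against no change, the Rap1a adjusted p ran from 0.00243 to 0.791 (edgeR, except for DESeq2 and limma-voom). Of the same 5 genes, 2 were lower with the length trend removed, with or without the block. The number lower was 0 by DESeq2, with 1 CPM required in 3 libraries or without the 20 most abundant genes, and 0 to 2 with single libraries left out. Signalling genes had 2 higher with the GC trend removed. Further scavengers had 4 lower with the length trend removed, 5 with the block added, 0 with the GC trend removed, 0 with every gene of at least 1 count tested, and 0 to 1 with single libraries left out. The number of further scavengers called higher ran from 7 to 13 with single libraries left out. Without a call, Rac1 was at -0.000 with library size alone (-0.005 to 0.066 with single libraries left out), Rap1a at -0.038 with the length trend removed and -0.045 with the block added (-0.029 to 0.175), and Nrros at -0.015 with library size alone, -0.007 with every gene of at least 1 count and -0.106 with the GC trend removed (-0.02 to 0.049). With the length of all exons, the mean Cybb to Cyba ratio was 0.219 with TMAO and 0.749 in controls, against 0.192 and 0.656. The cause of these shifts was not tested. No scaling moved the median of all genes by 0.1 or more. With 3 libraries a group and the length trend kept, the 95% interval of the Cyba log2 fold change ran from -0.24 to 0.43. A difference within that range, in either direction, is not excluded by that fit.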
